A study of Mus musculus with 3 samples.

Results

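The regions described here are the Smad3 and JMJD3 binding sites that lie upstream of genes, at a distance at which enhancers are commonly found. A peak was taken when its midpoint lay more than 5 kb and at most 50 kb upstream of the closest transcription start site (TSS). The midpoint also had to lie outside the gene body listed with that TSS. At a gene with several listed TSS, such a peak can lie inside a longer form of the same gene. The rule took 14263 of 98086 Smad3 peaks (14.5%) and 9168 of 63154 JMJD3 peaks (14.5%), 23431 of 161240 in all. Peaks of 1 list at most 10 bp apart were joined into regions, which left 10829 Smad3 and 6791 JMJD3 upstream regions.

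Both proteins were mapped in mouse neural stem cells by ChIP-seq, in which DNA bound by a protein is pulled down with an antibody and sequenced. The cells were wild type, were taken from the cerebral cortex of E12.5 embryos and were kept in culture with EGF at 20 ng/ml and FGF at 10 ng/ml. TGFb was given at 5 ng/ml, for 30 minutes before the Smad3 and the JMJD3 immunoprecipitations. The labels name 3 libraries, with 1 each for Smad3, JMJD3 and input DNA, and the lists of the first 2 were used. With 1 library per antibody and no untreated library, no value has a replicate error and none shows an effect of TGFb. All confidence intervals (exact Clopper-Pearson, 95%) and Fisher tests therefore cover counting error within these libraries only, and neighbouring regions are not independent of each other.

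Smad3 is the transcription factor that TGF-beta receptors phosphorylate, after which it enters the nucleus with Smad4 and binds DNA at short elements, of which CAGAC is the best known. JMJD3, encoded by Kdm6b, removes methyl groups from lysine 27 of histone H3, a mark that Polycomb proteins place on silent genes. Sites far upstream of a gene can act as enhancers, which are bound by transcription factors and chromatin enzymes and contact the promoter by looping. The closest TSS is only a label for such a site, since an enhancer can act on a gene farther away.

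MicroRNA genes were among the closest genes of these regions, and 122 of them had at least 1. How many microRNA genes the lists name in all is not given here, so this count has no share. Of all named genes, 34.4% had an upstream peak. The microRNA genes were singled out after their values were seen. MicroRNA genes took 3.28% (95% CI 2.99 to 3.59) of the Smad3 and 3.09% (2.74 to 3.46) of the JMJD3 upstream peaks, against 0.622% and 0.497% of the peaks within 1 kb of a TSS. Other upstream peaks had nearly the same share, with 2.74% and 2.86% at 1 to 5 kb and 2.37% and 2.68% beyond 50 kb, so it is not particular to 5 to 50 kb. Listed microRNA genes are short, with a median of 86 bp, because the annotation gives the hairpin and not the start of the primary transcript, so a peak at the true promoter of a microRNA can count as far upstream. At 9 microRNA genes, 5 or more Smad3 regions overlapped a JMJD3 region. The share of all genes with as many is not given here, so this count is a description only. The mature sequences of 6 of them, from RefSeq (GRCm38.p6), are shown 5′ to 3′ with the seed, bases 2 to 8, in capitals, because the seed is what selects the target mRNAs. The let-7c and let-7a forms carry the same seed, and each of the other 4 has a seed of its own. For Mir23b only the 5p form was at hand, so no 3p seed is shown. Which form is the active one was not examined.

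mmu-let-7c-5p: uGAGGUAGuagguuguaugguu
mmu-let-7a-5p: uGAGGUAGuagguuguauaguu
mmu-miR-29b-3p: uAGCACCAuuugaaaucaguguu
mmu-miR-23b-5p: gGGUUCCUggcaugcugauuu
mmu-miR-184-3p: uGGACGGAgaacugauaagggu
mmu-miR-153-3p: uUGCAUAGucacaaaagugauc

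Mirlet7c-2 had 19 Smad3 and 6 JMJD3 upstream regions, and 6 of the Smad3 regions overlapped JMJD3. Mir23b had 12 Smad3 and 8 JMJD3 regions with 8 shared, and Mirlet7a-1 had 6 and 5 with 5 shared. Mir29b-1 had 9 and 5 with 5 shared. The let-7 family is known for promoting differentiation. The widest Mirlet7c-2 regions lay at chr15:85499551-85502220 for Smad3 (2670 bp) and chr15:85499511-85502400 for JMJD3 (2890 bp), centred 36.1 kb from the annotated hairpin.

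The upstream regions themselves are on mm9, and their own sequence was not used here. The promoters of 4 genes with several upstream regions and a promoter peak of each factor are shown instead, chosen after their values were seen. They run from 250 bases before to 50 after the TSS, 5′ to 3′ on the gene's strand, on GRCm38.p6 (RefSeq). Id3 lies at chr4:136143572-136143871 on the plus strand, and Cyr61, which RefSeq calls Ccn1, at chr3:145649936-145650235 on the minus strand. Notch1 lies at chr2:26503773-26504072 on the minus strand and Fos at chr12:85473640-85473939 on the plus strand. Capitals mark the Smad element CAGAC on either strand, where the reverse strand reads GTCTG.

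Id3 promoter: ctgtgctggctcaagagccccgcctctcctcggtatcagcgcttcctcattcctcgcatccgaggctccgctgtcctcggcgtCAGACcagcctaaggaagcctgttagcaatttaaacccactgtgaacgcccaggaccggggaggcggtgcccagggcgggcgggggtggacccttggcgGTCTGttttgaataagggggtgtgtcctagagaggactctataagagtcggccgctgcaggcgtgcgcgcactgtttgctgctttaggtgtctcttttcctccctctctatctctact
Cyr61 promoter: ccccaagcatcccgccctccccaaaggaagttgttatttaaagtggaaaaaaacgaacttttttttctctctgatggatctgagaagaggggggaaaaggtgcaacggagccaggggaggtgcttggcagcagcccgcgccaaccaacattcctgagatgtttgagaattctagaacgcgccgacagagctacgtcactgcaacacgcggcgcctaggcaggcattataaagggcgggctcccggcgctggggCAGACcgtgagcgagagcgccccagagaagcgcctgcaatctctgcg
Notch1 promoter: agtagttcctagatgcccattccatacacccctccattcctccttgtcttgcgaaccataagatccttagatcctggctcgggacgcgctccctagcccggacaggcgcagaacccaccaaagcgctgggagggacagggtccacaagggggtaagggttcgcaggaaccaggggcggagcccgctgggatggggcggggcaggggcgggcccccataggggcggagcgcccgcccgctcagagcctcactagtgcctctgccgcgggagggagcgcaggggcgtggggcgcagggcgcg
Fos promoter: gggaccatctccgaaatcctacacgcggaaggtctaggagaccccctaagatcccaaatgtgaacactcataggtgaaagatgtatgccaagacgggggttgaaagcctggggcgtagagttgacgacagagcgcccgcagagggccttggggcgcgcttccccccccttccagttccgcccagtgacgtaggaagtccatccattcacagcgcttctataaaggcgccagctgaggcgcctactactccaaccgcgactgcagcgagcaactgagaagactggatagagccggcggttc

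The Id3 window held 2 matches, the Cyr61 window 1 and the Notch1 and Fos windows 0. CAGAC occurred in 49.6% of 32851 promoter windows of this length, so a match in 1 window is common and is not shown to be a binding site.

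Upstream regions of both factors became sparser with distance from the gene. Smad3 regions fell from 36.5 per Mb at 5 to 10 kb to 23.7 per Mb at 45 to 50 kb, where a Mb is a Mb of sequence upstream for which the gene has the closest TSS. JMJD3 regions fell from 21.4 to 16.0 per Mb. Inside genes, the same distances downstream of the TSS showed no such fall, with 37.7 and 35.99 Smad3 regions per Mb in the first and last bin and 21.7 and 21.9 JMJD3 regions. Over the whole 5 to 50 kb the density was 30.7 Smad3 and 19.2 JMJD3 regions per Mb. Closer to the gene, 1 to 5 kb upstream, it was 53.4 and 27.99, and beyond 50 kb it was 11.1 and 7.90. JMJD3 thus had 62.7 regions for every 100 Smad3 regions at 5 to 50 kb, compared with 52.4 at 1 to 5 kb and 71.2 beyond 50 kb. The median distance of the upstream peaks was 19362 bp for Smad3 (quartiles 10916.5 to 31383.5) and 19985 bp for JMJD3 (11236.8 to 31961.8). These densities are descriptions, with no test.

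**Figure D1:**
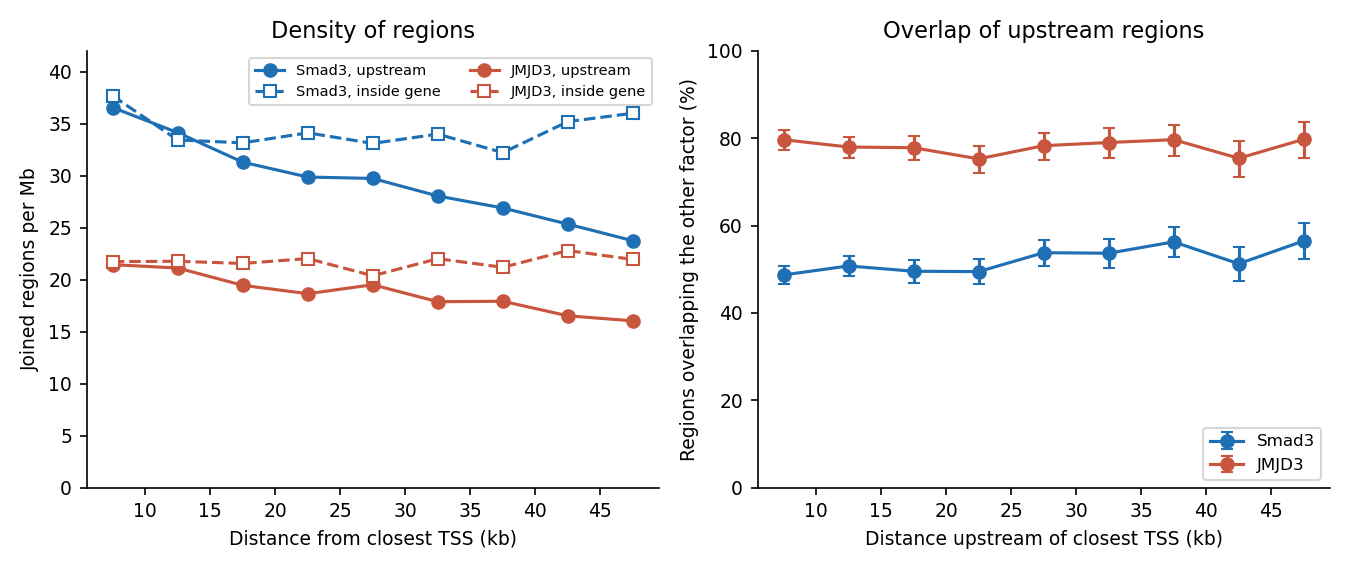
Left, joined regions per Mb (y axis) in bins of 5 kb of distance from the closest TSS (x axis, kb), upstream (filled, solid) and inside genes (open, dashed). Right, share of upstream regions that overlap the other factor (y axis, %), with 95% intervals. Upstream density falls from 36.5 to 23.7 (Smad3) and from 21.4 to 16.0 (JMJD3), while the dashed lines stay nearly level beyond 10 kb.

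The 5 and 50 kb limits do not fall on a visible break. At the inner limit, 50.3% of 741 Smad3 peaks from 4 to 5 kb and 49.4% of 705 from 5 to 6 kb overlapped JMJD3. At the outer limit the shares were 55.3% of 132 peaks just inside and 54.2% of 142 just outside. For JMJD3 they were 80.3% of 412 and 78.9% of 388 at 5 kb, and 82.0% of 89 and 76.8% of 99 at 50 kb.

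Most JMJD3 upstream sites lay on Smad3 sites, and about every other Smad3 site lay on a JMJD3 site. Of the JMJD3 upstream peaks, 7120 (77.7%, 95% CI 76.8 to 78.5) shared at least 1 bp with a Smad3 peak. Of the Smad3 upstream peaks, 8037 (56.3%, 55.5 to 57.2) shared at least 1 bp with a JMJD3 peak. Over all peaks of the lists the shares were 81.4% for JMJD3 and 60.2% for Smad3, so the upstream peaks lay slightly below the lists as a whole. As joined regions the upstream shares were 78.2% (5308 of 6791) and 51.3% (5556 of 10829). The Smad3 share was 48.7% (46.6 to 50.8) at 5 to 10 kb and 56.5% (52.3 to 60.6) at 45 to 50 kb, and the JMJD3 share was 79.6% and 79.7% in the same bins.

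Where the 2 factors met, they met closely. Overlapping regions formed 5658 pairs, with a median of 79.5 bp between midpoints, and 84.3% of pairs had midpoints within 200 bp. The JMJD3 region was the wider one in 69.1% of pairs. The median pair covered 95% of its Smad3 region and 76.7% of its JMJD3 region. In 99.6% of pairs the JMJD3 region belonged to the upstream set of the same gene. This share follows largely from the overlap itself, since regions at nearly the same place get the same closest TSS.

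Shared sites were wider than sites of 1 factor. Shared Smad3 regions had a median width of 560 bp and unshared ones 350 bp, and 12.7% against 0.778% were at least 1000 bp wide. For JMJD3 the medians were 680 and 450 bp, and the wide shares 17.7% and 0.607%. Read the other way, 26.6% of Smad3 regions under 300 bp overlapped JMJD3, 37.7% of those from 300 to below 500 bp, 75.7% of those from 500 to below 1000 bp and 95.03% of those from 1000 to below 2000 bp. The JMJD3 shares over the same widths were 37.9%, 53.9%, 87.2% and 99.2%. A wide region is more likely to touch another by its length alone, and the files carry no peak height, so width and enrichment cannot be told apart here. Above 2000 bp, 39 of 45 Smad3 regions (86.7%) and 43 of 45 JMJD3 regions (95.6%) overlapped.

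**Figure D2:**
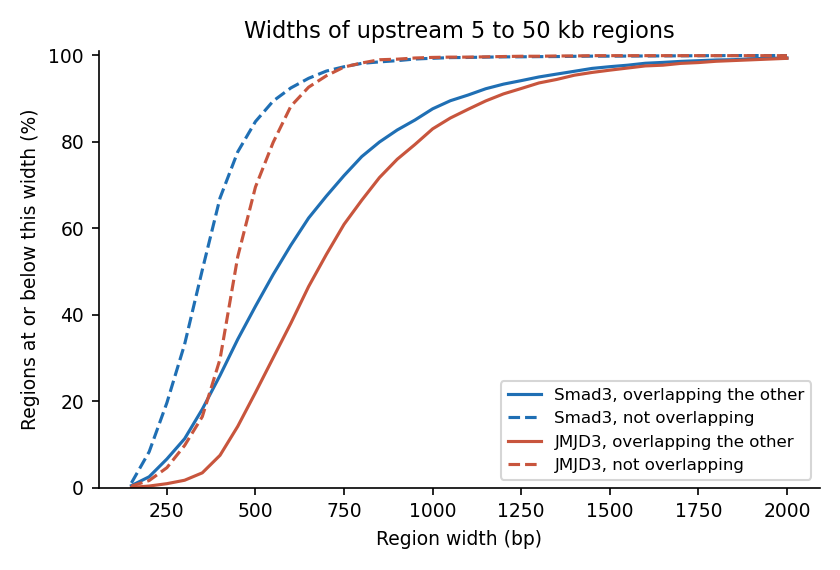
Cumulative share of upstream 5 to 50 kb regions (y axis, %) at or below a given width (x axis, bp), by factor and by overlap with the other factor. The solid lines (overlapping) lie to the right of the dashed ones, with medians of 560 against 350 bp for Smad3 and 680 against 450 bp for JMJD3.

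In their overlap the upstream regions were close to regions inside genes and differed from upstream sites nearer and farther away. Regions were compared by two-sided Fisher exact tests with Benjamini-Hochberg adjustment over 12 tests. Of the Smad3 upstream regions, 51.3% overlapped JMJD3, against 46.2% at 1 to 5 kb (5.12 points higher, adjusted exact p = 3.34e-06) and 55.9% beyond 50 kb (a difference of -4.60 points, adjusted exact p = 3.21e-09). The JMJD3 order was the opposite one. Of the JMJD3 upstream regions, 78.2% overlapped Smad3, against 82.2% at 1 to 5 kb (-4.04 points, adjusted exact p = 0.000629) and 74.9% beyond 50 kb (3.26 points higher, adjusted exact p = 6.52e-05). Regions 5 to 50 kb downstream of the TSS inside genes overlapped in 51.3% for Smad3 (0.04 points, adjusted exact p = 0.967) and 77.9% for JMJD3 (0.22 points, adjusted exact p = 0.837). The intervals of those shares were 50.3 to 52.2 and 76.9 to 79.0, compared with 50.4 to 52.3 and 77.2 to 79.1 upstream. The 2 differences from regions beyond 50 kb shrank to -0.91 (adjusted exact p = 0.438) and 0.68 points (adjusted exact p = 0.539) among the wider 50% of regions. The JMJD3 difference from 1 to 5 kb was -1.64 points (adjusted exact p = 0.257) when 50% of both regions had to overlap, and changed sign to 0.51 points (adjusted exact p = 0.833) when midpoints had to lie within 200 bp.

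Wide regions were fewer than close to the gene and more frequent than far from it. At least 1000 bp wide were 6.92% (95% CI 6.45 to 7.41) of Smad3 upstream regions, against 8.18% at 1 to 5 kb (-1.27 points, adjusted exact p = 0.0266) and 5.79% beyond 50 kb (1.12 points higher, adjusted exact p = 0.00306). For JMJD3 the share was 14.004% (13.2 to 14.9), against 17.7% (-3.73 points, adjusted exact p = 0.000482) and 11.6% (2.42 points higher, adjusted exact p = 0.000145). Against regions inside genes the Smad3 share was 0.59 points higher (6.33%, adjusted exact p = 0.108) and the JMJD3 share 1.31 points higher (12.7%, adjusted exact p = 0.0389). With 500 bp as the limit the Smad3 calls were lost and the JMJD3 difference from regions inside genes was -0.63 points (adjusted exact p = 0.654), while with 2000 bp both differences from beyond 50 kb missed the threshold (adjusted exact p = 0.144 each). The JMJD3 difference from regions inside genes also missed it with 2000 bp (adjusted exact p = 0.521) and when peaks up to 200 bp apart were joined (adjusted exact p = 0.365).

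**Figure D3:**
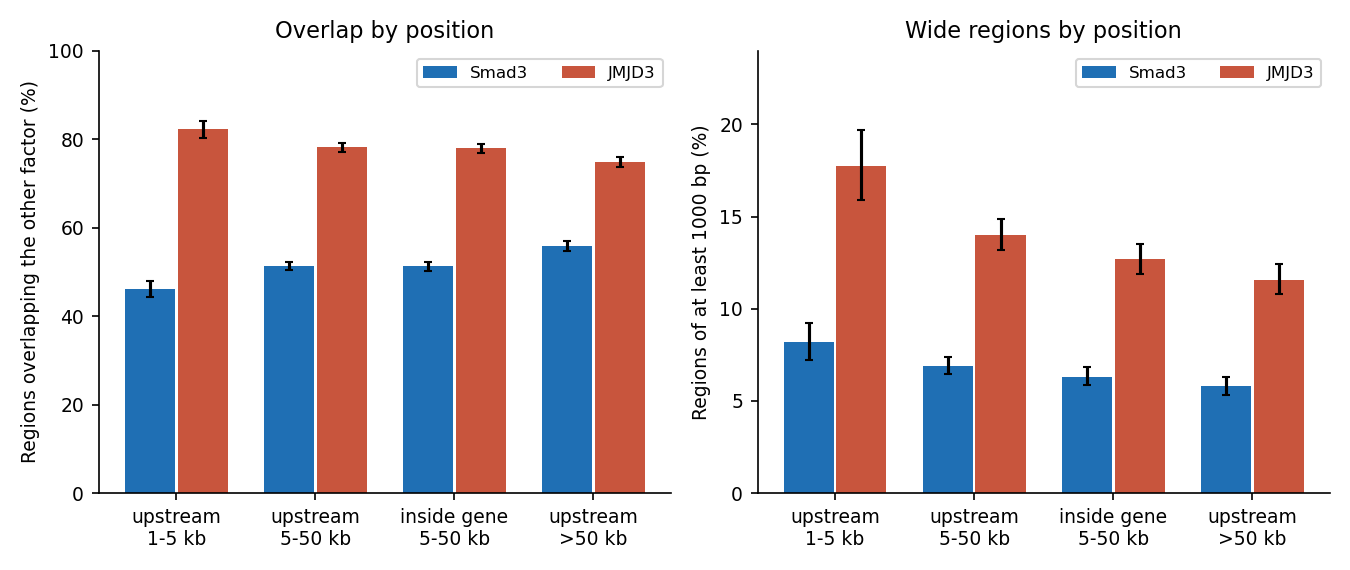
Share of joined regions (y axis, %) that overlap the other factor (left) and that are at least 1000 bp wide (right), in 4 classes of position, with 95% intervals. Over the upstream classes from 1 kb on, overlap rises with distance for Smad3 (46.2, 51.3 and 55.9%) and falls for JMJD3 (82.2, 78.2 and 74.9%). Regions inside genes are level with the upstream 5 to 50 kb regions. Regions within 1 kb of a TSS, not drawn, overlapped in 68.3% (Smad3) and 96.1% (JMJD3).

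About 1 in 5 of the upstream peaks lay inside a listed transcript other than that of the closest TSS, 2980 Smad3 and 1920 JMJD3 peaks (20.9% of each). That transcript could belong to another gene or be a longer form of the same gene, and these cases were not told apart. These peaks overlapped the other factor about as often as those outside every named gene. The shares were 56.1% (95% CI 54.3 to 57.9) against 56.4% (55.5 to 57.3) for Smad3 and 78.5% (76.6 to 80.4) against 77.4% (76.4 to 78.4) for JMJD3.

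The upstream peaks named 5647 genes, 34.4% of the 16428 genes named anywhere in the lists. Smad3 upstream peaks named 5134 genes, JMJD3 4022 and both 3509, and at 3280 genes a Smad3 and a JMJD3 upstream peak overlapped. Of all 20949 protein-coding genes in the RefSeq table, 22.7% had a Smad3 upstream peak, 17.8% a JMJD3 upstream peak and 14.5% a shared one. Of genes named in the lists these shares were 31.3, 24.5 and 20.0%. Most genes had few such regions. Of the genes with a Smad3 upstream region, 2668 (52.2%) had 1, and 453 had 5 or more, up to 19, and these held 27.9% of the regions. For JMJD3, 2418 genes (60.5%) had 1 and 145 had 5 or more, up to 12. The gap between neighbouring regions of a gene had a median of 3281 bp in the Smad3 list and 5371 bp in the JMJD3 list.

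Genes with an upstream site usually had a promoter site as well. A Smad3 promoter peak (midpoint within 1 kb of the TSS) was present at 67.9% of genes with a Smad3 upstream peak, and a JMJD3 promoter peak at 54.5% of genes with a JMJD3 upstream peak. Among genes named in the lists these shares were lower than the 75.4% and 58.0% of genes without such an upstream peak, with differences of -7.49 points (two-sided Fisher exact test, adjusted over 4 tests, p = 1.14e-22) and -3.51 points (adjusted exact p = 0.000102). This contrast depends on the genes compared, because a gene without an upstream peak is in the lists only through a peak elsewhere. Over all protein-coding genes, with a peak or not, the direction was the reverse, at 70.4% against 50.5% for Smad3 (adjusted exact p = 2.81e-134) and 57.1% against 40.3% for JMJD3 (adjusted exact p = 1.73e-77). Among genes with a peak of either factor outside the upstream window the differences were -0.40 and 0.70 points (adjusted exact p = 0.595 each). No direction is therefore given for the relation of upstream and promoter sites.

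The widest upstream Smad3 region, 4820 bp at chr1:24618291-24623110, was centred 26.4 kb upstream of Col19a1, a collagen gene, and did not overlap JMJD3. Next came Cirbp, a cold-inducible RNA-binding protein, with 4150 bp at chr10:79620981-79625130 and a JMJD3 region of 3511 bp on it. Sept9, a septin of the cytoskeleton, followed with 4050 bp, overlapped by JMJD3 regions of 1900 and 1700 bp. Other listed TSS of Sept9 lay farther upstream, so this region was upstream of an inner TSS only. Of the 10 widest Smad3 regions, 3 lay upstream of Fcgr3, an Fc receptor of immune cells, at 3670, 3610 and 3570 bp, and 3 of the 10 widest JMJD3 regions lay there too, at 4690, 3540 and 3101 bp. The 3 Smad3 regions started 7620 and 7380 bp apart and the JMJD3 regions 6550 and 7600 bp apart. Fcgr3 had no promoter peak of either factor. The widest JMJD3 region without Smad3 overlap, 3310 bp and made of 11 peaks, lay upstream of the pseudogene Pisd-ps1, at chr11:3000181-3003490. Among the other widest JMJD3 regions were those of Rgs16 (2740 bp), a regulator of G-protein signalling, and Srp9 (2790 bp), a subunit of the signal recognition particle. The sequence of these widest regions was not read. Whether repeated sequence or misplaced reads widened any of them was not tested, so width alone does not make them strong binding sites.

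The genes with the most shared upstream regions were of mixed function. Dab2ip, a Ras GTPase-activating protein, had 18 Smad3 and 12 JMJD3 regions with 13 shared, spread over 3 annotated TSS. Most of its Smad3 regions lay downstream of the outermost of these TSS, and so count as upstream of an inner TSS only. Cuedc1 had 14 and 9 with 9 shared over 2 TSS. The other 8 genes of the first 10 each had 8 shared regions, namely Kbtbd11, Trak1, Plekhg5, Ptprj, Npl, Eif4g3, Bfsp2 and Eps8l3. Trak1 is an adaptor for mitochondrial transport, Ptprj a receptor tyrosine phosphatase and Eif4g3 a translation initiation factor. Of these 10 genes, Eps8l3 had no promoter peak of either factor.

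Genes with a longer stretch of upstream sequence to themselves have more room for such a site. The gene lists below are therefore also counted over genes with at least 20 kb of the window closest to their own TSS. Of the 7010 coding genes of that kind, 33.5% had a shared upstream peak, 41.1% one of JMJD3 and 50% one of Smad3. The lists were not tested, and these shares are given beside the list counts as a background.

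Genes that switch TGF-beta signalling off or respond to it often had shared upstream sites. Genes of several other lists below did so about as often or more often, so this is not particular to them. Of 34 such genes, 23 had a Smad3 upstream peak, 19 a JMJD3 upstream peak and 17 a shared one. With at least 20 kb of window it was 14 of 24. Id3, an inhibitor of DNA-binding helix-loop-helix factors and a classic target of Smads, had 9 Smad3 regions, 5 JMJD3 regions and 6 shared. Its widest were a Smad3 region of 1771 bp at chr4:135689941-135691711, centred 8.91 kb from the TSS, and a JMJD3 region of 1620 bp at chr4:135690131-135691750. A second Smad3 region of 1400 bp lay at 6.996 kb on a JMJD3 region of 830 bp, and 3 Smad3 regions of 190 to 280 bp between 20.2 and 28.5 kb had no JMJD3. At Id3 the 3 narrowest Smad3 regions were the unshared ones.

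Cyr61, a secreted matricellular protein, had 7 Smad3 and 5 JMJD3 regions with 5 shared. At 31.6 kb a Smad3 region of 920 bp (chr3:145344121-145345040) and a JMJD3 region of 1060 bp began at the same base. Ctgf, its relative and a standard TGF-beta response gene, had 1 shared site at 25.7 kb, with 411 bp of Smad3 and 930 bp of JMJD3. Both inhibitory Smads had shared sites. Smad7 had 3 regions of each factor and all were shared, with 1860 bp of Smad3 and 1300 bp of JMJD3 at chr18:75501631-75503490 and chr18:75502001-75503300. Smad6 had 4 Smad3 and 5 JMJD3 regions with 4 shared, all beyond 23 kb and at most 660 bp wide. Id1, a relative of Id3, had 2 Smad3 regions, of 420 and 171 bp, and no JMJD3 region upstream.

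Of 22 ligands, receptors and Smads of the pathway, 8 had a Smad3 and 8 a JMJD3 upstream peak and 8 a shared one, and 7 of 12 with at least 20 kb of window. Tgfbr2, the type II receptor, had 4 Smad3 and 2 JMJD3 regions with 2 shared, at 38.1 and 43.5 kb. Acvr1b, an activin type I receptor, had 2 of each, both shared and at most 470 bp wide. Ltbp1 and Ltbp2, binding proteins that hold latent TGF-beta in the matrix, had 2 shared regions each, and Ltbp2 had no promoter peak. The genes of both immunoprecipitated proteins were themselves marked. The Smad3 gene had 2 Smad3 regions of 410 bp each, at 22.6 and 45.5 kb, and the second overlapped a JMJD3 region of 750 bp. Kdm6b had 4 Smad3 and 3 JMJD3 regions with 3 shared, the widest being 1250 bp of Smad3 at chr11:69232101-69233350 and 960 bp of JMJD3 at chr11:69232121-69233080, centred 5.55 and 5.42 kb from the TSS. Kdm6b had a Smad3 promoter peak and no JMJD3 promoter peak.

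**Figure D4:**
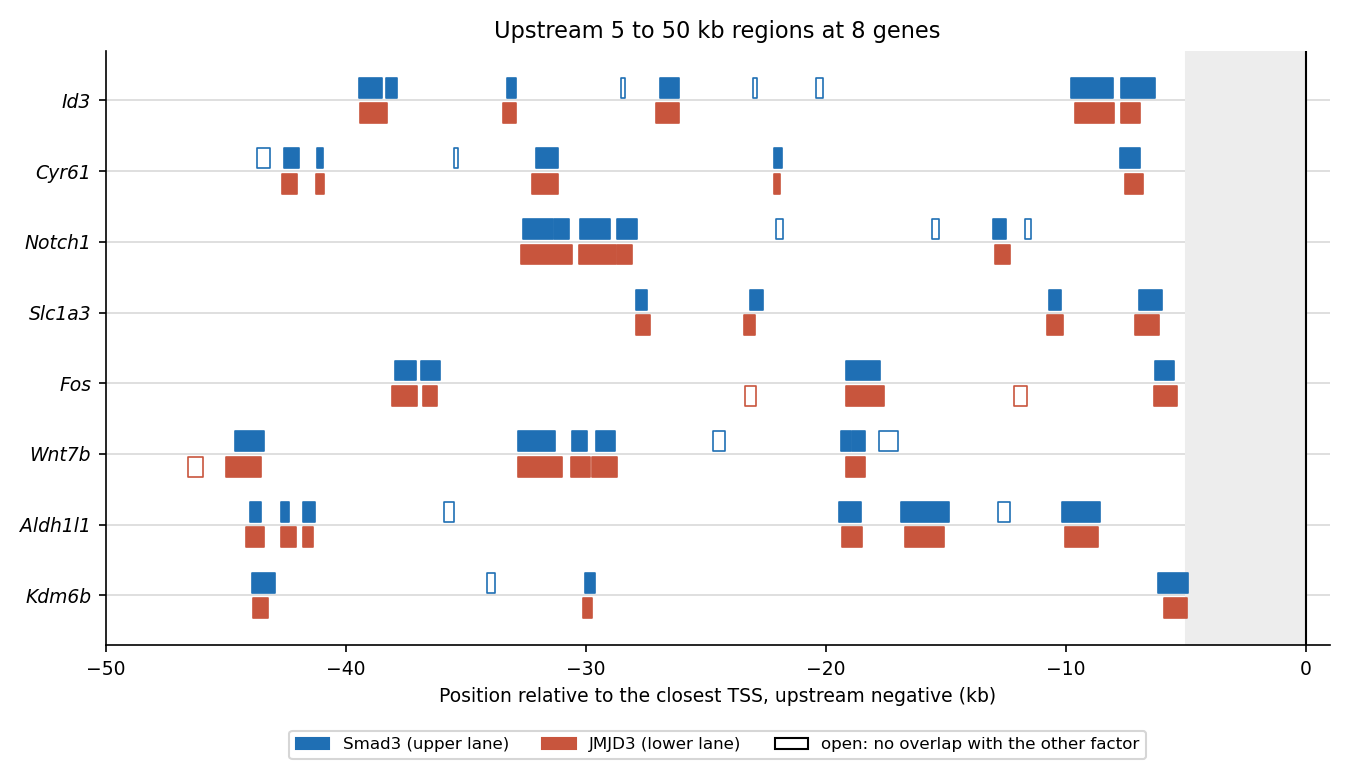
Upstream regions at 8 genes (rows) by position relative to the closest TSS (x axis, kb, upstream negative), with Smad3 in the upper and JMJD3 in the lower lane, bars drawn to their width and open where they do not overlap the other factor. The grey band marks the first 5 kb, outside the rule. All Slc1a3 regions are shared (4 of each factor), while Id3 has 3 narrow open Smad3 bars.

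The cells' label was checked on promoter peaks, since peak lists hold no RNA level. Of 10 neural stem cell markers 9 had a Smad3 and 8 a JMJD3 promoter peak, and Prom1 lacked both. Of all coding genes, 55.0% had a Smad3 and 43.3% a JMJD3 promoter peak. Of 5 neuronal markers 3 and 2 had one, and of 6 astrocyte and oligodendrocyte markers 1 and 0. A promoter peak is not a measure of expression.

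Neural stem and progenitor genes had a shared upstream site in 15 of 36 cases (41.7%), with 21 having a Smad3 and 18 a JMJD3 upstream peak. With at least 20 kb of window it was 12 of 24. Slc1a3, the glutamate transporter of radial glia, had 4 regions of each factor between 6.47 and 27.7 kb, and all were shared. Notch1 had 8 Smad3 and 4 JMJD3 regions with 5 shared. Its JMJD3 region of 2100 bp at chr2:26389921-26392020, centred 31.6 kb from the TSS, spanned Smad3 regions of 611 and 1270 bp. Fabp7, a radial glial fatty acid carrier, had 4 and 3 with 3 shared, and Rfx4 had 10 and 2 with 3 shared over 2 TSS. Nes, which encodes nestin, had 1 shared site about 10 kb upstream, with 1000 bp of Smad3 and 900 bp of JMJD3. Sox2 had no upstream region, and 0.771 kb of the window lay closest to its TSS.

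In the Notch pathway, 17 of 30 genes had a Smad3, 15 a JMJD3 and 13 (43.3%) a shared upstream peak, and 8 of 13 with at least 20 kb of window had a shared one. Hes1, the main effector of Notch in progenitors, had 2 shared sites. The nearer held 1651 bp of Smad3 at chr16:30059021-30060671, centred 5.596 kb from the TSS, and 960 bp of JMJD3, and the farther 731 and 970 bp. Maml2, a coactivator of Notch, had 14 Smad3 and 6 JMJD3 regions with 7 shared over 2 TSS, and no JMJD3 promoter peak. Psen2, a subunit of gamma-secretase, had 7 and 3 with 4 shared, and Nrarp, a feedback inhibitor, had 3 of each, all shared.

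Immediate early genes and feedback inhibitors of ERK had shared upstream sites in 24 of 35 cases (68.6%, 95% CI 50.7 to 83.1), the highest share of the 12 lists, and in 17 of 21 cases with at least 20 kb of window. Of these genes 25 had a Smad3 and 26 a JMJD3 upstream peak, and all 24 with a shared one also had promoter peaks of both factors. Of the 35 genes, 34 had a Smad3 promoter peak, with or without an upstream site. The cells were kept in EGF and FGF, and whether this bears on the count was not tested. Fos had 4 Smad3 and 6 JMJD3 regions with 4 shared, the widest at 18.4 kb with 1410 bp of Smad3 (chr12:86795701-86797110) and 1570 bp of JMJD3 (chr12:86795701-86797270). Ier3, an early response gene, had 9 and 5 with 5 shared, led by 2010 bp of Smad3 at chr17:35949491-35951500 and 1770 bp of JMJD3. Klf2 had 8 and 5 with 5 shared, none above 940 bp. Spred1, an inhibitor of Ras signalling, had 8 and 4 with 4 shared. Spry1 and Zfp36l2 had 1 JMJD3 region each and no Smad3 region upstream.

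Neurogenic and patterning transcription factors had a shared upstream site in 19 of 50 cases and in 16 of 33 with at least 20 kb of window. Smad3 upstream peaks were at 24 and JMJD3 upstream peaks at 22 of them. Neurog2, a proneural factor of the cortex, had 1 shared site about 7 kb upstream, with 1270 bp of Smad3 at chr3:127328151-127329420 and 710 bp of JMJD3 at chr3:127328701-127329410. Sox11, a factor of immature neurons, had 4 and 2 regions with 3 shared, Pou3f2 had 5 and 3 with 3 shared, and Dbx2 had 4 and 3 with 3 shared. At Dbx2 the widest pair, 1390 bp of Smad3 and 1410 bp of JMJD3, were centred 36.8 kb from the TSS. Fezf2, a factor of deep-layer cortical neurons, had 3 shared regions and no promoter peak, as was so for Cux2, Lhx5, Neurod2 and Nkx2-2 among the 19. Dbx1, a patterning gene, had neither an upstream region nor a promoter peak, although 45 kb of window lay closest to it.

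Glial and gliogenic genes had a shared upstream site in 9 of 22 cases (40.9%), and in 6 of 11 with at least 20 kb of window. Smad3 upstream peaks were at 10 and JMJD3 upstream peaks at 11 of them. Aldh1l1, an enzyme used as an astrocyte marker, had 8 Smad3 and 6 JMJD3 regions with 6 shared, the widest at 15.9 kb with 2010 bp of Smad3 (chr6:90483971-90485980) and 1611 bp of JMJD3 (chr6:90484161-90485771). It had no promoter peak of either factor. The same held for 3 more of the 9, Aqp4, Mbp and Mog. Nfib, which promotes gliogenesis, had 8 and 5 with 6 shared. Slc1a2, the other astroglial glutamate transporter, had 4 and 3 with 4 shared, and Stat3 had 3 of each, all shared. Nfib, Slc1a2 and Stat3 had promoter peaks of both factors.

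In the Wnt pathway, 17 of 35 genes had a Smad3, 16 a JMJD3 and 12 (34.3%) a shared upstream peak, and 11 of 23 with at least 20 kb of window had a shared one. Wnt7b, a ligand of cortical progenitors, had 8 and 6 with 6 shared, among them 1570 bp of Smad3 at chr15:85443521-85445090 and 1840 bp of JMJD3 at chr15:85443241-85445080. Fzd9, a receptor, had 5 and 4 with 4 shared, and Dkk3, a secreted member of the Dickkopf family, had 6 and 5 with 5 shared and no promoter peak. Fzd7 and Lef1 had 1 JMJD3 region each and no Smad3 region. Axon guidance genes had a shared upstream site in 11 of 40 cases (27.5%) and in 10 of 34 with at least 20 kb of window, near the background of 33.5%. Plxna2, a semaphorin receptor, was the first among them with 5 and 4 regions and 4 shared. Nrp2 and Sema3c had 3 and 2 with 2 shared.

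The remaining lists cover genes of non-neural lineages and cytoplasmic ribosomal protein genes. Transcription factors of other lineages had a Smad3 upstream peak in 15 of 40 cases, a JMJD3 upstream peak in 8 and a shared one in 5, and 4 of 24 with at least 20 kb of window had a shared one, while 13 of those 24 had a Smad3 one. Twist2, Mef2c and Myog of this list had 1 shared region each and no promoter peak. Gata2 had 1 shared region with promoter peaks of both factors. Genes of differentiated non-neural cells had a Smad3, JMJD3 and shared upstream peak in 10, 7 and 5 of 40 cases, and 3 of 13 with at least 20 kb of window had a shared one. Myh7, a cardiac myosin, had 2 shared regions, of which the widest were 1070 bp of Smad3 and 1010 bp of JMJD3. Cytoplasmic ribosomal protein genes, which lie in gene-dense sequence with a median of 3.46 kb of window, had 9, 8 and 6 of 49, and 3 of 8 with at least 20 kb of window had a shared one. Rplp0 had 2 shared regions, while 47 of the list had a Smad3 promoter peak. Differences between the lists were not tested.

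**Figure D5:**
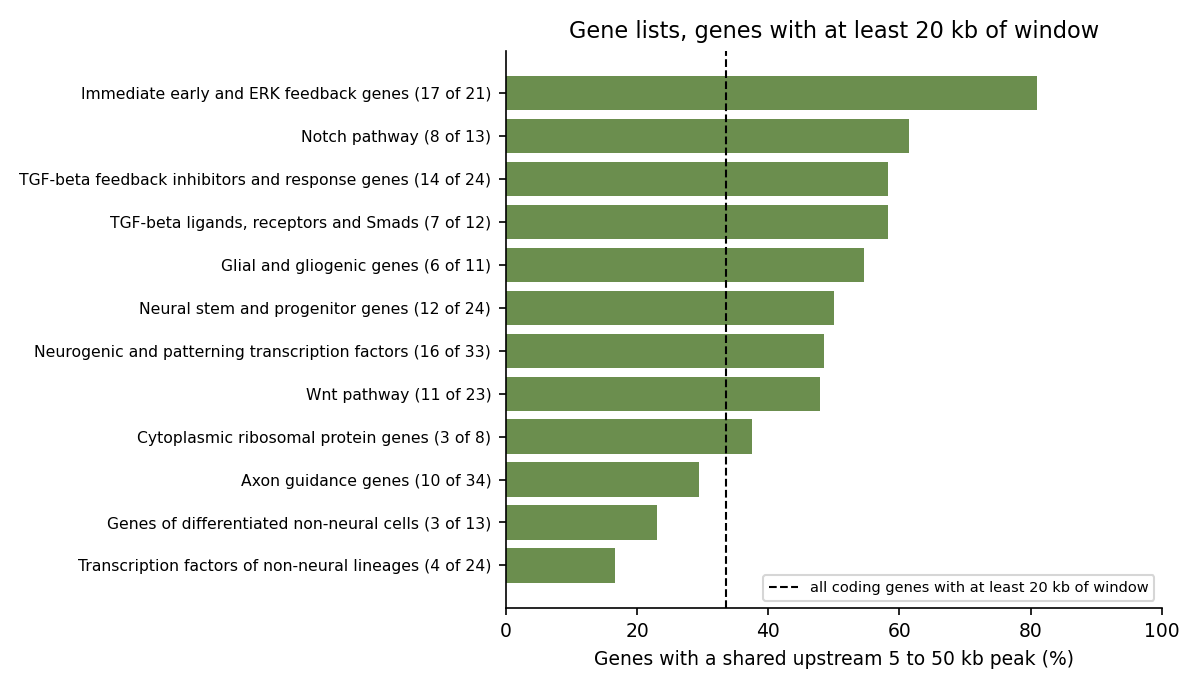
Share of genes with a shared upstream 5 to 50 kb peak (x axis, %) in each of the 12 lists (rows), over genes with at least 20 kb of the window closest to their TSS, with counts in the row names. The dashed line is the 33.5% of all 7010 such coding genes. Immediate early and ERK feedback genes (17 of 21) lie farthest above it and transcription factors of other lineages (4 of 24) farthest below.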

How the data were processed

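Peak lists of 2 libraries were analysed. CASAVA, Bowtie 0.12.7, MACS 1.4 and the build mm9 are named, without a role for each tool, per the submitters' processing notes. No label or header gives thresholds or the use of the input. The deposited tables, per the file headers, give each peak's start and end and the signed distance in bp from the closest RefSeq TSS to its midpoint, made by the authors for each library separately. They hold no height, p-value or read number, so depth is unknown and region width was used in place of a peak score.

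Peaks at most 10 bp apart were joined. A region took the class and closest gene of its widest peak, and distances given for a region are those of its centre. Overlap meant at least 1 shared bp. The upstream 5 to 50 kb regions were compared with upstream 1 to 5 kb, intragenic 5 to 50 kb and upstream beyond 50 kb by two-sided Fisher exact tests (SciPy 1.17.1, pandas 2.3.3, Python 3.11.15), with Benjamini-Hochberg adjustment over 12 tests. Promoter peaks were tested over genes, adjusted over 4 tests. The window of a gene was the part of its upstream 5 to 50 kb closest to its own TSS among named TSS. Of 16428 named genes, 16331 (99.4%) matched the RefSeq gene table (GRCm38.p6) by Entrez ID, which gave names and the coding background and no coordinates for the peaks. The code for the tests was checked on simulated peaks.

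Named genes are the closest genes of the 10 widest regions of each factor, the 10 with most shared regions, up to 4 shared and 2 of 1 factor from each of 12 lists, and 11 fixed genes, skipping predicted genes and microRNAs. Not every gene the rule takes is printed. Members and lists were chosen with earlier results of these data known, so no count is independent support. Alternatives changed the overlap rule, width limit, joining, distance limits, promoter window and gene set. Those by width class, without genes of 5 or more regions and over other gene sets were added after the data were seen.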

Additional observations from a re-analysis of the deposited data

Results flagged for a closer look

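One pattern stood out between the 2 factors. Compared with upstream regions beyond 50 kb, the share overlapping the other factor differed by -4.60 points in Smad3 upstream regions (51.3% against 55.9%) and by 3.26 points in JMJD3 upstream regions (78.2% against 74.9%), in opposite directions. The difference between the factors was not itself tested, and both shares come from the same overlaps counted from either side. JMJD3 regions per 100 Smad3 regions were 62.7 at 5 to 50 kb and 71.2 beyond 50 kb.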

How the results depend on the processing

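Of 132 alternative values, 93 kept the side of the threshold, and also the direction where the main difference had passed it (counts: within 1.5 times). The overlap differences from regions inside genes had not passed it, and they changed sign in several of these 93. No paired analysis was possible because each antibody has 1 library. The overlapping peak shares were 35.96% (Smad3) and 56.1% (JMJD3) with reciprocal overlap of 50%, 45.9% and 68.9% with midpoints within 200 bp, and 51.4% and 74.9% for the wider 50% of peaks. JMJD3 overlap against 1 to 5 kb was -1.64 points with reciprocal overlap and 0.51 with midpoints. Against beyond 50 kb it was -0.91 (Smad3) and 0.68 (JMJD3) in the wider 50% of regions. Under 500 bp the JMJD3 differences from 1 to 5 kb and from beyond 50 kb were -2.48 and 3.36 points. From 500 to below 1000 bp they were -2.42 and 1.58, and at 1000 bp or more -0.60 and -0.070. None of these JMJD3 differences passed the threshold within its width class. Smad3 at 1000 bp or more gave 2.86 and -2.36 points, which also missed it.

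For the share of wide regions, a limit of 500 bp gave -1.63 (Smad3, 1 to 5 kb), 0.14 (Smad3, beyond 50 kb) and -0.63 points (JMJD3, inside genes). A limit of 2000 bp gave 0.15 (Smad3) and 0.22 (JMJD3) beyond 50 kb and 0.11 (JMJD3) inside genes, and joining at 200 bp gave 0.69 there. Smad3 against inside genes passed the threshold outside every named gene (0.78 points) and without genes of 5 or more regions (1.11). The 4 promoter differences (Smad3 upstream with Smad3 and JMJD3 promoters, JMJD3 upstream with JMJD3 and Smad3 promoters) were -7.49, -4.40, -3.51 and -6.05 points. They were -2.14, -0.65, 0.40 and -0.57 with at least 5 kb of window, 20.0, 17.4, 16.8 and 19.5 over all coding genes, and -0.40, 1.25, 0.70 and -0.79 among genes with another peak. Apart from the gene set's construction, the cause was not tested. Depth is unknown, and no value has a replicate.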

Other observations

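At 968 of the 3280 genes with a shared upstream peak, neither factor had a promoter peak. Of all coding genes, 55.0% had a Smad3 and 43.3% a JMJD3 promoter peak, and the share with neither was not counted. Among the 968 genes, those with most shared regions were Eps8l3 with 8, Hfe2, Sipa1l2 and Acot11 with 7 each, and Aldh1l1, Accsl, Cxcl11 and Gpr110 with 6 each. Hfe2, which encodes hemojuvelin, a BMP co-receptor, had 8 Smad3 and 4 JMJD3 regions, the widest of 1570 and 2580 bp. Sipa1l2 had 16 Smad3 and 6 JMJD3 regions. Hdac4, a histone deacetylase, had 6 and 5 with 5 shared, and Tox2 had 9 and 4 with 5 shared. These genes were chosen after their values were seen, and which gene a site acts on was not tested.

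Olig1 and Olig2, neighbouring genes of the oligodendrocyte lineage, were also picked after their values were seen. Olig1 had a JMJD3 region of 2510 bp at chr16:91261901-91264410, on a Smad3 region of 2130 bp, with a Smad3 promoter peak and no JMJD3 promoter peak. Olig2 had 1 shared region, with 1201 bp of Smad3 and 1360 bp of JMJD3 as its widest, and promoter peaks of both. A Smad3 region of 3120 bp, made of 7 peaks and without JMJD3 overlap, lay upstream of Gad2, which encodes an enzyme of GABA synthesis. Whether repeated sequence or misplaced reads widened it was not tested.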
